A study of Homo sapiens with 6 samples.

Results

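The genes described are 48 interferon-stimulated genes, with the HLA genes left out. They were chosen by gene symbol from a table of 58735 genes, and all 48 were found in it. They code for ISG15 and the enzymes of its conjugation, for antiviral effectors such as the IFIT, IFITM, MX, OAS and GBP proteins, for cytosolic RNA sensors, and for ubiquitin ligases, PARPs and nuclear body proteins. Their expression was measured by poly(A) RNA-seq in U251, an established cell line of human glioblastoma. Control cells (NC group, n = 3) received sterile deionized water, and the other cells received recombinant human TNF-α at 10 ng/mL (TNF-α group, n = 3), both for 24 h. The replicates of each group were labelled as independent biological replicates of this 1 line, and the labels name no other agent or allele. In such bulk samples, a lower level in every cell cannot be told apart from fewer cells that express a gene.

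Type I interferons bind the receptor pair IFNAR1 and IFNAR2 and activate the kinases JAK1 and TYK2. These switch on the transcription factor complex ISGF3, which holds STAT2 and IRF9 and binds the interferon-stimulated response element (ISRE) in the promoters of its target genes. TNF-α signals mainly through NF-kB and MAP kinases, and can act on interferon-stimulated genes through the interferon regulatory factor IRF1 and through secreted interferon-β.

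The libraries held 31992167 to 37897044 reads in genes. TNF-α replicates 2 and 3 stood apart from the other 4 libraries in composition. The share of reads in genes over 8 kb was 16.6% in replicate 2 and 17.9% in replicate 3 of the TNF-α group but between 28.8% and 29.1% in the NC libraries and TNF-α replicate 1. For this reason the values of TNF-α replicate 1 are given separately throughout. The glioblastoma markers VIM, CD44, NES, SOX2 and EGFR were expressed in all 6 libraries, while GFAP, an astrocyte filament gene, was at 8.16, 7.10 and 9.47 FPKM in the NC replicates and 1.58, 2.60 and 2.39 FPKM in the TNF-α replicates, and the astrocyte gene S100B was at or near 0. PTPRC, CD3D, CD3E and CD2, defining genes of leukocytes and T cells, were listed at 0 in every library, and the other macrophage and endothelial markers examined did not exceed 0.332 FPKM. KRT8, an epithelial keratin gene, was between 0.443 and 1.40 FPKM and SNAP25, a neuronal gene, between 0.345 and 1.18 FPKM, while EPCAM and RBFOX3 did not exceed 0.0584 FPKM. GFAP fell, with a log2 fold change of -1.54 (SE 0.18, adjusted p = 0.021) in limma. VIM lay above every NC library in each TNF-α library, with a log2 fold change of 1.05 (SE 0.34, adjusted p = 0.195), and SOX2 below, with -0.84 (SE 0.34, adjusted p = 0.195). EGFR differed from its NC mean by 0.35, -1.51 and -1.24 in TNF-α replicates 1 to 3 on the log2 scale. The part of these genes in the results below was not tested.

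Many of the 48 genes were already abundant in untreated U251 cells. Expression is given in FPKM, fragments scaled by gene length and library size, which allows levels of different genes to be compared. The median of the NC means was 44.9 FPKM over the 47 genes that were tested, against 6.91 FPKM over all 12136 genes tested, and 44 of the 47 lay above that median of all genes. Of the genes ranked by NC mean, IFI6 was number 7, ISG15 number 21, BST2 number 27 and IFITM3 number 55, so that 4 members were among the 100 highest genes and 25 among the 1000 highest. At the other end, ISG20 averaged 1.57 ± 0.0598 FPKM and GBP4 0.164 ± 0.0391 FPKM (mean ± SD, n = 3). GBP4 had 27 to 41 reads per NC library, did not reach 1 FPKM in 3 libraries and was the only member left out of the test. The 48 genes together took 1.43% to 1.47% of the reads in the NC libraries, 1.63% in TNF-α replicate 1, and 1.84% and 1.87% in TNF-α replicates 2 and 3.

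**Figure D1:**
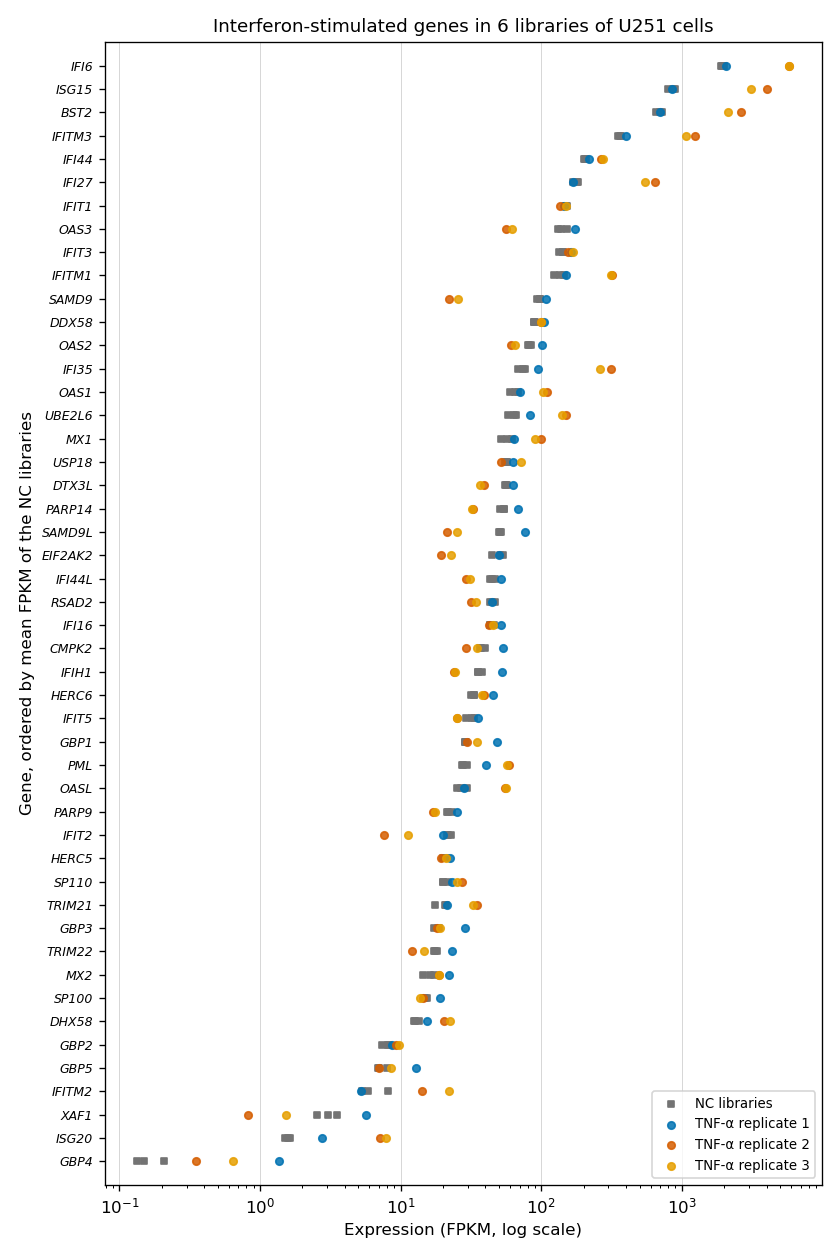
FPKM (x axis, log scale) of the 48 interferon-stimulated genes (y axis, ordered by NC mean) in the 3 NC libraries (grey squares) and the 3 TNF-α libraries (coloured circles). The NC means run from 0.164 FPKM for GBP4 to 1941 FPKM for IFI6, the NC squares lie close together, and the circles of TNF-α replicates 2 and 3 lie near each other and often far from the circle of replicate 1.

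Which members responded in every TNF-α library was examined first. A total of 20 of the 48 genes lay above all 3 NC libraries in each TNF-α library. These were UBE2L6, HERC6, IFIT3, IFI6, IFI35, IFI44, IFITM1, IFITM3, MX1, MX2, OAS1, GBP1, GBP2, GBP4, DDX58, DHX58, ISG20, TRIM21, PML and SP110. The only member below every NC library in each TNF-α library was IFIT2. Among the 47 members tested, 19 thus lay above and 1 below, where 14.8% of all genes tested lay above in this way and 15.3% below. Only ISG20 and PML exceeded the NC mean by at least 0.5 on the log2(FPKM + 1) scale in each TNF-α library, which 2.1% of all genes tested did upwards. On this scale the added 1 makes differences of low genes too small. GBP4, with an NC mean of 0.164 FPKM, differed by 1.02, 0.217 and 0.4999 in TNF-α replicates 1 to 3. With TPM in place of FPKM, which is scaled to the same sum in every library, 7 of the 47 members lay above in each library, against 6.14% of all genes tested. With quantile normalization 8 members did, against 13.1%, and with limma-voom 10, against 9.37%. With each library centred on its median ratio 18 members did, against 1634 of all 12136 genes tested. UBE2L6, IFI35, IFITM1, IFITM3, ISG20 and PML were the 6 members above in each library with FPKM and all of these scalings. How many of all genes tested were above with every scaling was not counted.

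The remaining 27 genes did not go in 1 direction in all 3 libraries. The largest class held 14 genes that were above every NC library in TNF-α replicate 1 and below every NC library in replicates 2 and 3, namely IFIT5, IFI44L, OAS2, OAS3, IFIH1, CMPK2, XAF1, SAMD9, SAMD9L, TRIM22, PARP9, PARP14, DTX3L and SP100. A class of 5 genes (ISG15, IFI27, OASL, BST2 and IFITM2) was above in replicates 2 and 3 only. The other 8 genes had mixed positions. Among these, USP18 and HERC5 were below the NC libraries only in replicate 2, GBP3, GBP5 and IFI16 were above them in replicate 1, and EIF2AK2 and RSAD2 were below them in replicates 2 and 3, while IFIT1 was below in replicates 1 and 2.

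**Figure D2:**
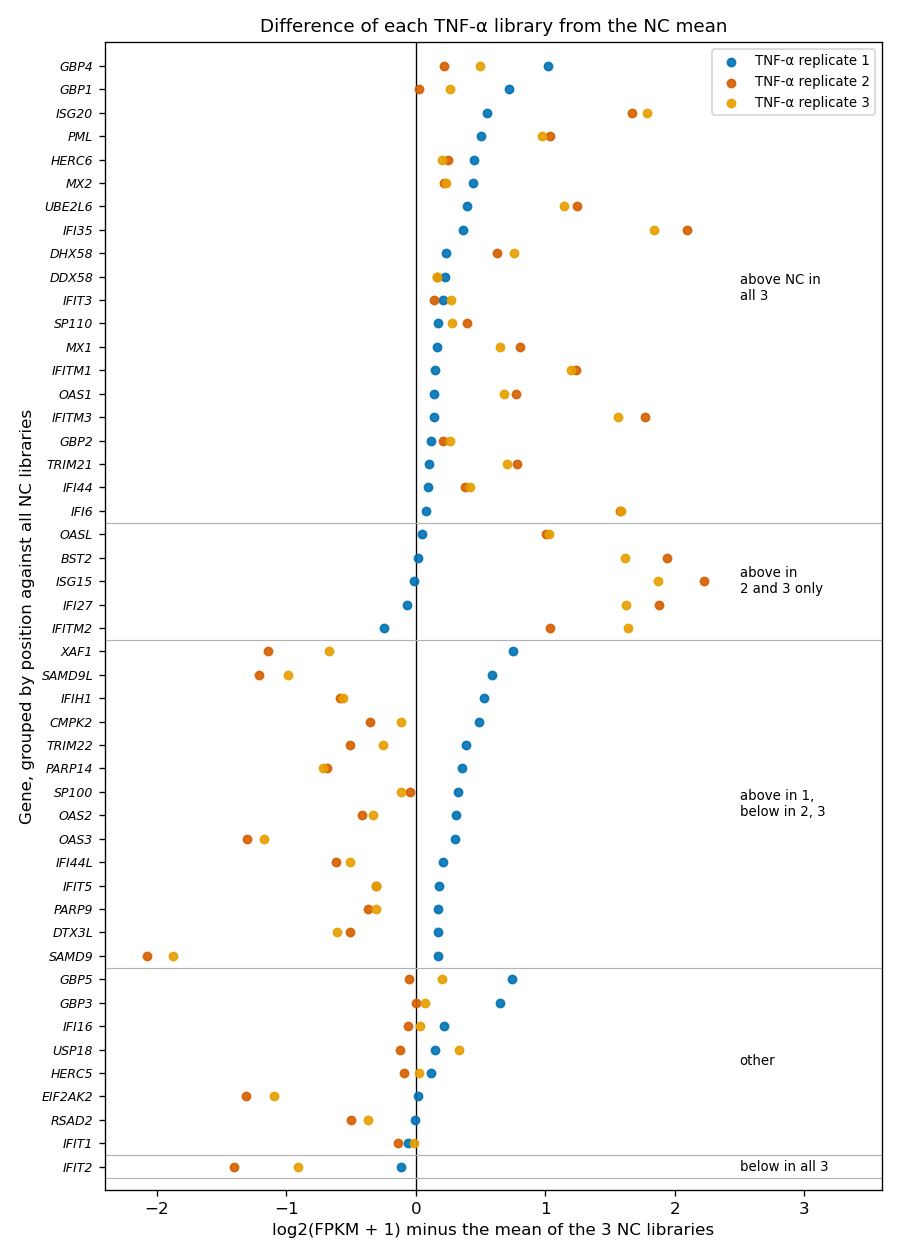
Difference of each TNF-α library from the mean of the 3 NC libraries (x axis, log2(FPKM + 1) units) for the 48 genes, grouped by their position against all NC libraries. The 20 genes at the top are right of 0 in all 3 TNF-α libraries, the class of 14 genes has replicate 1 (blue) right of 0 and replicates 2 and 3 (red and orange) left of it, and IFIT2 is left of 0 in all 3.

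The TNF-α group was then compared with the NC group by limma across all 12136 genes, with Benjamini-Hochberg adjustment over all of them. No member passed an adjusted p under 0.05, which 1.01% of all genes did, and limma-voom on the recovered reads called 0 of the 47 members as well. The smallest adjusted p among the members was 0.133, for PML. At an unadjusted p under 0.05, 10 of the 47 members were higher and 1 was lower in the TNF-α group, where 12.3% of all genes were higher and 11.9% lower. The 10 were PML, ISG20, UBE2L6, DHX58, IFI35, IFITM1, IFITM3, MX1, OAS1 and TRIM21, and the 1 was IFIT2. The median log2 fold change was 0.21 over the 47 members and 0.04 over all genes tested. It was -0.27 for the members with TPM, where the median of all genes was -0.42, and -0.09 with quantile normalization, so that its sign depended on the scaling.

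The TNF-α libraries were then examined one by one. In TNF-α replicate 1, 38 of the 47 members lay above every NC library and 3 below, against 30.5% and 34.3% of all genes tested, and the members ranged from -0.24 for IFITM2 to 0.75 for XAF1 on the log2 scale. In replicate 2, 24 were above and 21 below, against 49.3% and 43.5% of all genes, with a range from -2.08 for SAMD9 to 2.23 for ISG15. In replicate 3, 28 were above and 17 below, against 48.5% and 43.6%, with a range from -1.87 for SAMD9 to 1.87 for ISG15. The members' median differences were 0.18, 0.03 and 0.21 in replicates 1 to 3, against -0.01, 0.08 and 0.05 for all genes. Members thus lay above the NC libraries more often than all genes in replicate 1, while in replicates 2 and 3 large differences in both directions were common among all genes as well.

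When TNF-α replicate 1 alone was set against the 3 NC libraries with limma, a comparison chosen after the data were seen in which the lone library is assumed to vary like the NC libraries, 12 of the 47 members had an adjusted p under 0.05 and were higher, against 3.7% of all genes, and none was lower. They were PARP14, SAMD9L, IFIH1, PML, CMPK2, GBP1, HERC6, TRIM22, GBP3, GBP5, ISG20 and XAF1, with log2 differences from 0.36 for PARP14 to 0.75 for XAF1. Without TNF-α replicate 1, 38 of the 47 members had an adjusted p under 0.05, and 79.4% of all genes did. A total of 17 members then lay below every NC library in both remaining TNF-α libraries, as did 40.8% of all genes.

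The direction in TNF-α replicates 2 and 3 varied with gene length and base composition, in the members as in all genes. Over the 14 members of up to 4 kb, the median difference was 0.12, 1.14 and 1.17 in replicates 1 to 3, and over the 33 longer members it was 0.23, -0.14 and -0.11. The same medians over all genes tested were -0.03, 0.57 and 0.48 up to 4 kb and 0.00, -0.24 and -0.21 above. Of the 20 genes above in each library, 9 were among the 14 short members and 10 among the 33 longer ones, GBP4 being the untested member. The class of 14 genes above only in replicate 1 spanned 4.02 to 12.6 kb with a median GC content of 42.8%, whereas the 5 genes above only in replicates 2 and 3 spanned 0.941 to 4.15 kb with a median GC content of 55.4%. Across the 47 members, which share the library and are not independent, Spearman's rho of the difference with gene length was 0.464, -0.524 and -0.584 in replicates 1 to 3, and with GC content -0.151, 0.721 and 0.733. Over the 12136 genes these were 0.0475, -0.4125 and -0.425 for length and -0.104, 0.452 and 0.441 for GC content.

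**Figure D3:**
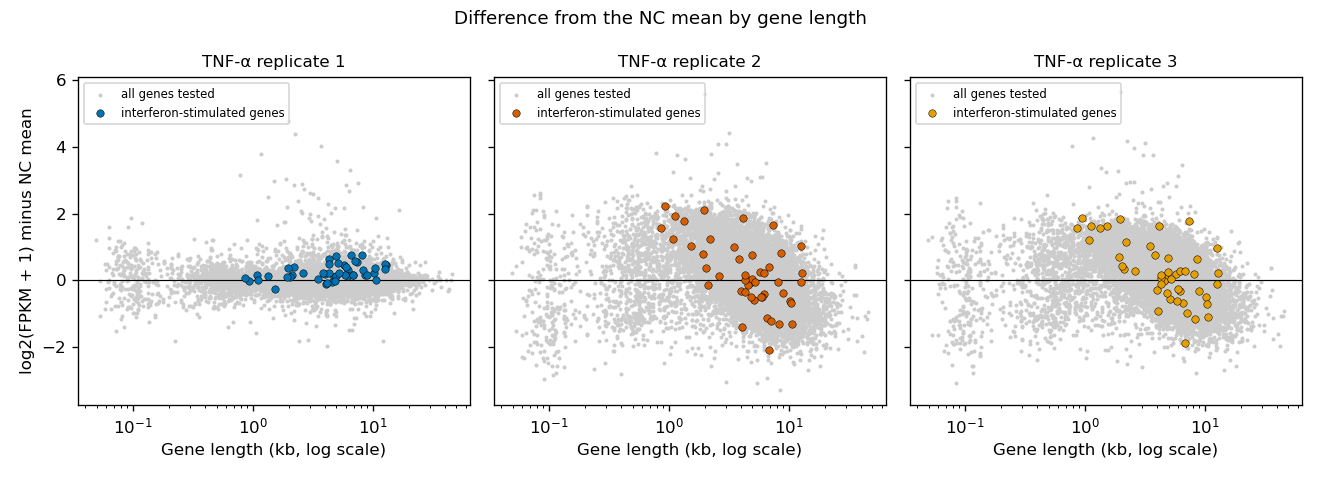
Difference from the NC mean (y axis, log2(FPKM + 1) units) against gene length (x axis, kb, log scale) for all 12136 genes tested (grey) and the 47 members tested (coloured), 1 panel per TNF-α library. Both clouds tilt downwards with length in replicates 2 and 3, where rho of the members is -0.524 and -0.584, and all genes are spread more widely there than in replicate 1.

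The part of length and GC content was examined with a fit that first removed from each library's log2 ratios what followed them across all genes. In this fit 24 of the 47 members lay above every NC library in each TNF-α library, against 15.7% of all genes, and 17 of the 19 found without the correction were among them. DHX58 and IFIT3 were not. GBP3, GBP5, IFI16, IFI44L, ISG15, PARP9 and SP100 were among the 24 but not among the 19. The members' median differences were then 0.17, 0.21 and 0.24 in replicates 1 to 3. Of the 10 members higher at an unadjusted p under 0.05 before the correction, UBE2L6 went from a log2 fold change of 0.93 to 0.39. IFI35 went from 1.43 to 0.86, IFITM3 from 1.16 to 0.65, IFITM1 from 0.86 to 0.48 and TRIM21 from 0.53 to 0.17. DHX58 went from 0.54 to 0.06, OAS1 from 0.53 to 0.48 and ISG20 from 1.33 to 1.32. MX1 and PML went up, from 0.54 to 0.61 and from 0.84 to 0.95. GBP5 was the only member with an adjusted p under 0.05 in limma, at a log2 fold change of 0.69 with adjusted p = 0.0388, and 2.04% of all genes passed. With the replicate block added to this fit, 0 members passed. At an unadjusted p under 0.05, 21 members were higher and 1 was lower, where 12.7% of all genes were higher and 15.2% lower.

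To show the response elements beside the genes, RefSeq promoter windows on GRCh38.p14 (250 bases before to 50 bases after a start) were searched, of which 51 belonged to 37 of the 48 members. The ISRE letters searched were TTTC, NN and TTTC in a row, on both strands and with overlaps allowed. They were found in 26 of the 37 members and in 58.8% of the 51 windows, against 3.57% of all 35116 windows. The stretches printed here were chosen after the values were seen, to set genes of the different classes side by side, and the capitals mark the ISRE letters. Each is read 5′ to 3′ on the strand of its gene and lies before the RefSeq start, although 30 bases of the ISG20 stretch and 19 of the OAS3 stretch are exonic in GENCODE 29.
Above in each library, ISG20, chr15:88638937-88638966 (+ strand): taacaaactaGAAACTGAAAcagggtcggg
Above in each library, IFI6, chr1:27672309-27672368 (- strand): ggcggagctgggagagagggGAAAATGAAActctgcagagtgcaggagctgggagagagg
Above in each library, IFIT3, chr10:89327821-89327880 (+ strand): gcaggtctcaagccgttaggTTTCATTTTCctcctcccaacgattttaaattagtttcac
Above in replicates 2 and 3 only, ISG15, chr1:1013364-1013423 (+ strand): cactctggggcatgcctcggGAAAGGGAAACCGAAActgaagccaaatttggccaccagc
Above in replicates 2 and 3 only, IFI27, chr14:94110608-94110667 (+ strand): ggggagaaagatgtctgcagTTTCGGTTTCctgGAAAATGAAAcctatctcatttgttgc
Above in replicate 1 and below in 2 and 3, SAMD9, chr7:93118076-93118135 (- strand): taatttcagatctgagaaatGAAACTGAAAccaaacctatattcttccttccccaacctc
Above in replicate 1 and below in 2 and 3, OAS3, chr12:112938311-112938370 (+ strand): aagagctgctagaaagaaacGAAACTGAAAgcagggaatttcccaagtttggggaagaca
Above in replicate 1 and below in 2 and 3, IFI44L, chr1:78620264-78620323 (+ strand): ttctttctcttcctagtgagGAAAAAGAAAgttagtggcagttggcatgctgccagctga
Below in replicates 1 and 2, IFIT1, chr10:89392487-89392546 (+ strand): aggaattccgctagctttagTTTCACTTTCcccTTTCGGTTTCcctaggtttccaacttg

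The ISRE letters of ISG20, SAMD9 and OAS3 were the same, GAAACTGAAA, in genes that belonged to different classes. In the ISG15 stretch 2 matches overlapped, and in IFI27 and IFIT1 2 matches stood a few bases apart. By class, the letters were found in 10 of 16 genes above in each library, in 8 of 12 genes of the class above in replicate 1 and below in 2 and 3, in 3 of 3 genes above in replicates 2 and 3 only, and in 5 of 6 of the genes with mixed positions. Members without them in their windows were CMPK2, DDX58, HERC6, IFI16, IFI35, OAS1, SAMD9L, SP100, SP110, UBE2L6 and XAF1. The letters of the gamma-activated site GAS, TTC, NNN and GAA in a row, were in 9 members and in 19.6% of member windows, against 7.66% of all windows. The kB consensus, read on both strands, was in 8 members (BST2, DDX58, GBP4, IFIH1, IFITM3, MX1, OAS3 and XAF1) and in 17.6% of member windows, against 11.3% of all windows. OAS3 held 2 overlapping kB matches within the stretch printed above. No windows were matched to DHX58, GBP2, GBP5, IFIT2, IFITM2, MX2, OAS2, OASL, PML, TRIM22 and USP18. A match is a description of the letters and not of binding.

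Among the genes of ISG15 conjugation, UBE2L6 and HERC6 were above the NC libraries in all 3 TNF-α libraries, HERC6 not with TPM, quantile normalization or limma-voom. UBE2L6 (ENSG00000156587, chromosome 11, 57551656 to 57568284, - strand), the E2 enzyme that carries ISG15, was at 66.4, 57.7 and 64.1 FPKM in NC replicates 1 to 3 and at 82.6, 149.8 and 139.7 FPKM in TNF-α replicates 1 to 3. Its lowest TNF-α value, in replicate 1, was above the highest NC value, and the log2 fold change was 0.93 (SE 0.26, adjusted p = 0.193). With the GC content and length correction it was 0.39. HERC6, a HECT-type ligase, was at 33.3, 31.9 and 33.3 FPKM in the NC and 45.3, 39.3 and 37.98 FPKM in the TNF-α replicates, highest in replicate 1. ISG15 itself (ENSG00000187608, chromosome 1, 1001138 to 1014540, + strand), the ubiquitin-like modifier, was at 870.3, 798 and 895 FPKM in the NC and 845, 3999.8 and 3124 FPKM in the TNF-α replicates. Replicate 1 lay within the NC values and replicates 2 and 3 far above them, with a log2 fold change of 1.36 (SE 0.59, adjusted p = 0.195). HERC5, the main ISG15 ligase, and USP18, which removes ISG15 and dampens interferon receptor signalling, had log2 fold changes of 0.02 and 0.12.

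The 4 genes of the IFIT family, whose proteins bind foreign RNA ends, lie in 1 cluster on chromosome 10. They took 4 different patterns in FPKM. With the GC content and length correction, the log2 fold changes of IFIT1, IFIT3 and IFIT5 were 0.04, 0.03 and -0.04, and that of IFIT2 was -0.79. IFIT3 was at 143, 134 and 143 FPKM in the NC and 162, 154 and 168 FPKM in the TNF-α replicates, a small and even difference in all 3 that changed sign with TPM, quantile normalization and limma-voom. IFIT2 (ENSG00000119922, chromosome 10, 89283694 to 89309276, + strand) was at 22.6, 21.3 and 21.8 FPKM in the NC and 20.1, 7.64 and 11.2 FPKM in the TNF-α replicates. It lay below every NC library in each TNF-α library, only slightly in replicate 1, with a log2 fold change of -0.81 (SE 0.32, adjusted p = 0.195). IFIT1, the highest of the family, was at 153, 149 and 149 FPKM in the NC and 144, 136 and 149 FPKM in the TNF-α replicates, where replicate 3 overlapped the NC values. IFIT5 was above the NC libraries in replicate 1 and below in the others. Reads in 10.3% of the IFIT2 exon bases could also come from LIPA or an overlapping transcript.

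The IFI genes, a group named for interferon inducibility rather than for a shared function, held some of the largest differences in replicates 2 and 3. IFI6, a small mitochondrial and endoplasmic reticulum protein gene, was at 1909, 1935 and 1979 FPKM in the NC and 2054, 5788 and 5814 FPKM in the TNF-α replicates. IFI35 (ENSG00000068079, chromosome 17, 43006725 to 43014456, + strand) was at 73.9, 68.4 and 76.5 FPKM in the NC and 94.1, 315 and 263 FPKM in the TNF-α replicates, with a log2 fold change of 1.43 (SE 0.45, adjusted p = 0.195). In both genes replicate 1 lay just above the NC libraries and replicates 2 and 3 far above, but IFI6 was not above in each with quantile normalization. The log2 fold change of IFI6 was 1.08, and 0.65 with the GC content and length correction. IFI44 was at 207, 203 and 201 FPKM in the NC and 218, 265 and 273 FPKM in the TNF-α replicates, above in each, but lower in the group mean with TPM or quantile normalization. Its neighbour on chromosome 1, IFI44L, was at 47.1, 44.96 and 42.8 FPKM in the NC and 52.1, 28.95 and 31.3 FPKM in the TNF-α replicates, above in replicate 1 and below in the others. IFI27 was at 179, 167 and 181 FPKM in the NC and 167, 647 and 542 FPKM in the TNF-α replicates, with replicate 1 among the NC values.

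The IFITM proteins, which hinder fusion of viral and cell membranes, were highest for IFITM3. It was at 364, 353 and 369 FPKM in the NC and 399, 1239.6 and 1072 FPKM in the TNF-α replicates. IFITM1 was at 144, 124 and 137 FPKM in the NC and 149, 318 and 311 FPKM in the TNF-α replicates. Both genes were above the NC libraries in each TNF-α library, with log2 fold changes of 1.16 (SE 0.44, adjusted p = 0.195) and 0.86 (SE 0.32, adjusted p = 0.195). IFITM2, at 5.34, 8.16 and 5.89 FPKM in the NC and 5.22, 14.1 and 21.99 FPKM in the TNF-α replicates, was lowest in TNF-α replicate 1. The family is near-identical in sequence and 32.5% of IFITM1, 22.7% of IFITM2 and 21.3% of IFITM3 exon bases overlapped other genes, so the division of reads among them is uncertain.

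Both MX genes, dynamin-like GTPases that trap viral nucleocapsids, were above the NC libraries in every TNF-α library in FPKM, but neither was with TPM or quantile normalization. MX1 was at 56.9, 52.1 and 62.2 FPKM in the NC and 63.98, 100.2 and 89.99 FPKM in the TNF-α replicates, a log2 fold change of 0.54 (SE 0.21, adjusted p = 0.195). MX2, at 13.05 kb the longest member, was at 16.1, 14.5 and 17.2 FPKM in the NC and 22.01, 18.7 and 18.9 FPKM in the TNF-α replicates, highest in replicate 1. The OAS genes, whose enzymes make the oligoadenylates that activate RNase L, divided between classes. OAS1 was at 68.3, 59.7 and 64.8 FPKM in the NC and 70.9, 110.3 and 103 FPKM in the TNF-α replicates, a log2 fold change of 0.53 (SE 0.21, adjusted p = 0.195). It was above in each TNF-α library in FPKM, but not with TPM or quantile normalization. OAS3, the highest of the family, was at 138, 132 and 152 FPKM in the NC and 173, 56.4 and 61.9 FPKM in the TNF-α replicates. It was above every NC library in replicate 1 and below all of them in replicates 2 and 3, as was OAS2, its neighbour on chromosome 12. OASL, a catalytically inactive relative, was at 26.7, 25.3 and 29.9 FPKM in the NC and 28.1, 55.5 and 56.4 FPKM in the TNF-α replicates, with replicate 1 within the NC range.

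In the guanylate-binding proteins, GTPases that attack vacuoles and membranes of pathogens, TNF-α replicate 1 was highest in 4 of 5 genes. GBP1, the highest of them, was at 28.8, 28.8 and 29.2 FPKM in the NC and 48.3, 29.5 and 34.8 FPKM in the TNF-α replicates. GBP4 (ENSG00000162654, chromosome 1, 89181148 to 89198932, - strand) was at 0.149, 0.134 and 0.208 FPKM in the NC and 1.37, 0.353 and 0.645 FPKM in the TNF-α replicates, with 269, 56 and 96 reads in the latter. GBP2 was at 8.06, 7.37 and 8.26 FPKM in the NC and 8.65, 9.30 and 9.69 FPKM in the TNF-α replicates, with replicate 1 lowest. All 3 genes were above the NC libraries in each TNF-α library in FPKM, but GBP1 and GBP2 were not with TPM or limma-voom. Unlike GBP2, GBP1 was also not above in each with quantile normalization or centring on the median ratio. Its log2 difference in replicate 2 was 0.027 in FPKM. GBP3 and GBP5 were above in replicates 1 and 3, with replicate 2 within the NC range. In replicate 1 alone, the log2 differences of GBP1, GBP3 and GBP5 were 0.72, 0.65 and 0.75. The GBP genes are close paralogs in a cluster on chromosome 1, and 9.89% of GBP2 exon bases overlapped GBP7.

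**Figure D4:**
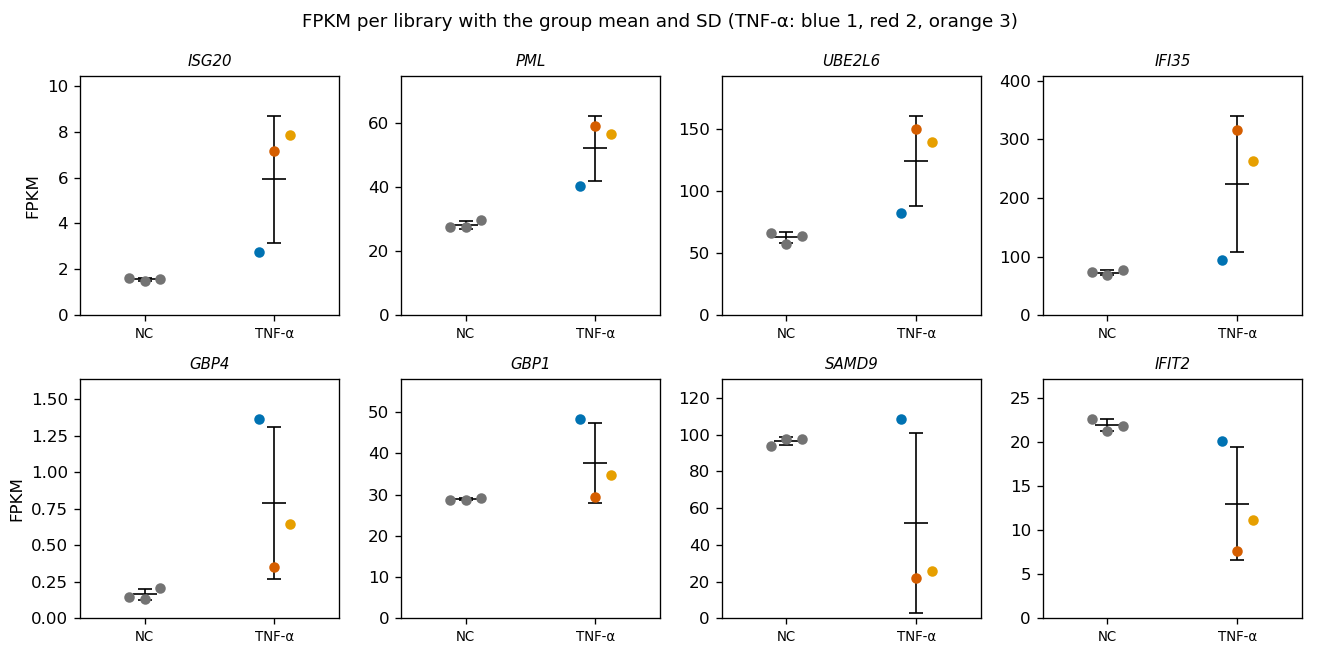
FPKM (y axis, starting at 0) per library for 8 genes in the NC and TNF-α groups (x axis), with the group mean and SD (n = 3) as black bars. In ISG20, PML, UBE2L6 and IFI35 all TNF-α libraries lie above the NC libraries with replicate 1 (blue) lowest, in GBP4 and GBP1 replicate 1 is highest, in SAMD9 only replicate 1 is above, and in IFIT2 all 3 are below.

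Of the RNA sensors, DDX58 (RIG-I) was at 88.9, 88.5 and 90.2 FPKM in the NC and 105, 100.1 and 100.1 FPKM in the TNF-α replicates, nearly the same in all 3. DHX58 (LGP2), a regulator of the other sensors, was at 12.7, 12.4 and 13.5 FPKM in the NC and 15.3, 20.5 and 22.5 FPKM in the TNF-α replicates, a log2 fold change of 0.54 (SE 0.17, adjusted p = 0.195). Both were above the NC libraries in each TNF-α library in FPKM, but neither was with TPM. With quantile normalization and limma-voom DHX58 was above in each and DDX58 was not. The log2 fold change of DDX58 was -0.32 with TPM, -0.33 with quantile normalization and -0.08 with limma-voom. With the GC content and length correction DHX58 was not above in each, at a log2 fold change of 0.06. IFIH1 (MDA5) was at 35.6, 35.7 and 37.7 FPKM in the NC and 52.9, 23.8 and 24.3 FPKM in the TNF-α replicates, high in replicate 1 only. EIF2AK2, the RNA-activated kinase PKR, was at 50.7, 53.7 and 44.95 FPKM in the NC and 50.3, 19.4 and 22.7 FPKM in the TNF-α replicates, low in replicates 2 and 3.

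ISG20 (ENSG00000172183, chromosome 15, 88636153 to 88656483, + strand), an RNA exonuclease, was the lowest of the tested members in the NC group. It was at 1.63, 1.51 and 1.57 FPKM in the NC and 2.76, 7.17 and 7.84 FPKM in the TNF-α replicates, a log2 fold change of 1.33 (SE 0.33, adjusted p = 0.164). Every TNF-α value was above every NC value, with replicate 1 the lowest. RSAD2 (viperin), which makes a chain-terminating nucleotide, was at 46.7, 44.98 and 43.2 FPKM in the NC and 44.7, 31.5 and 34.5 FPKM in the TNF-α replicates, and replicate 1 lay within the NC range. CMPK2, its neighbour on chromosome 2, was at 37.4, 36.6 and 39.6 FPKM in the NC and 53.6, 29.4 and 35.00 FPKM in the TNF-α replicates, above in replicate 1 only.

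Among other restriction factors, BST2 (tetherin), which holds budding virions at the cell surface, was at 722, 654 and 694 FPKM in the NC and 698, 2647 and 2119 FPKM in the TNF-α replicates. Replicate 1 was within the NC values and the others were far above. SAMD9 (ENSG00000205413, chromosome 7, 93099513 to 93118023, - strand), which restricts poxviruses, was at 93.8, 97.7 and 97.7 FPKM in the NC and 109, 22.1 and 25.6 FPKM in the TNF-α replicates, with a log2 fold change of -1.26 (SE 0.59, adjusted p = 0.196). SAMD9L, beside it on chromosome 7, was at 50.2, 50.6 and 51.8 FPKM in the NC and 76.8, 21.4 and 25.2 FPKM in the TNF-α replicates. Both were above every NC library in replicate 1 and far below in the others. XAF1, a pro-apoptotic gene, was at 3.02, 2.53 and 3.50 FPKM in the NC and 5.71, 0.817 and 1.52 FPKM in the TNF-α replicates, and 38.3% of its exon bases overlapped PRAL.

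PML (ENSG00000140464, chromosome 15, 73994673 to 74047812, + strand), which organizes the nuclear bodies named after it, had the smallest adjusted p of the members. It was at 27.5, 27.5 and 29.7 FPKM in the NC and 40.4, 59.1 and 56.6 FPKM in the TNF-α replicates, a log2 fold change of 0.84 (SE 0.18, adjusted p = 0.133). All TNF-α libraries were above the NC libraries. At 12.7 kb PML is among the longest members, and its GC content is 58.2%. With the GC content and length correction its log2 fold change was 0.95. SP110, another nuclear body protein gene, was at 20.1, 19.9 and 21.6 FPKM in the NC and 23.3, 27.4 and 25.2 FPKM in the TNF-α replicates, above in each. It was not above in each with TPM, quantile normalization or limma-voom, and 20.9% of its exon bases overlapped SP140 or another transcript. SP100 was at 15.3, 14.5 and 14.8 FPKM in the NC and 18.9, 14.4 and 13.7 FPKM in the TNF-α replicates, above in replicate 1 only. IFI16, a DNA sensor and the highest of this group, was at 43.00, 43.5 and 45.8 FPKM in the NC and 51.5, 42.4 and 45.02 FPKM in the TNF-α replicates, also above in replicate 1 only. With the GC content and length correction, SP100 and IFI16 were above in each. TRIM21, a cytosolic antibody receptor and ubiquitin ligase, was at 21.1, 17.7 and 20.7 FPKM in the NC and 21.3, 34.7 and 32.8 FPKM in the TNF-α replicates, a log2 fold change of 0.53 (SE 0.21, adjusted p = 0.195). Of the ubiquitin ligases and PARPs it was the only one above in each library in FPKM. TRIM21 was not above in each with TPM, quantile normalization or limma-voom. With the GC content and length correction, TRIM21 and PARP9 were both above in each. DTX3L, a ubiquitin ligase that pairs with PARP9, was at 55.8, 55.4 and 57.00 FPKM in the NC and 63.3, 39.04 and 36.5 FPKM in the TNF-α replicates. PARP9, PARP14 and TRIM22 were placed like DTX3L, above the NC libraries in replicate 1 and below them in the others.

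A list of 43 interferon pathway genes was examined as well, of which 30 passed the filter. The list was not confined to genes upstream of the members. Among those tested were 4 brakes and 6 other interferon-inducible genes, CXCL10 among them. Of the 30 tested, 3 passed an adjusted p under 0.05 in limma, all higher in the TNF-α group, against 1.01% of all genes tested. Above every NC library in each TNF-α library were 16, against 14.8% of all genes tested. CXCL10, a chemokine gene induced by interferons and by NF-kB, was at 8.31, 7.10 and 7.62 FPKM in the NC and 119, 116 and 166 FPKM in the TNF-α replicates, and rose with a log2 fold change of 3.94 (SE 0.18, adjusted p = 0.000833). IKBKE, a kinase that activates interferon regulatory factors, was at 3.52, 4.25 and 5.09 FPKM in the NC and 12.2, 17.1 and 15.3 FPKM in the TNF-α replicates, and rose with a log2 fold change of 1.59 (SE 0.18, adjusted p = 0.0197). IRF1, a transcription factor that binds ISRE-like sites, was at 4.61, 5.18 and 5.74 FPKM in the NC and 11.9, 20.2 and 19.7 FPKM in the TNF-α replicates, and rose with a log2 fold change of 1.53 (SE 0.22, adjusted p = 0.0429). All 3 genes were above every NC library in each TNF-α library, replicate 1 included. An overlap of 22.0% of IRF1 exon bases with other genes leaves part of its reads uncertain.

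Only 1 of 10 listed interferon ligand genes and 4 of 6 receptor genes could be tested, and none of these had an adjusted p under 0.05 in limma. IFNB1, the interferon-β gene, was at 0.612, 1.31 and 0.870 FPKM in the NC and 0.507, 1.08 and 1.29 FPKM in the TNF-α replicates, and IFNA2, IFNK, IFNL2, IFNL3 and IFNG were listed at 0 in every library. IFNAR1 was at 11.9, 13.01 and 11.5 FPKM in the NC and 15.3, 10.8 and 10.4 FPKM in the TNF-α replicates, with overlapping groups. The other 3 tested receptor genes did not overlap between the groups. Of all genes tested, 14.8% lay above and 15.3% below every NC library in each TNF-α library. IFNGR2, a chain of the interferon-γ receptor, was at 5.77, 5.40 and 7.17 FPKM in the NC and 9.70, 11.4 and 12.3 FPKM in the TNF-α replicates, a log2 fold change of 0.77 (SE 0.16, adjusted p = 0.106), and 12.8% of its exon bases overlapped TMEM50B. IFNGR1, the other chain, was at 9.68, 9.34 and 8.43 FPKM in the NC and 13.2, 11.4 and 12.1 FPKM in the TNF-α replicates, a log2 fold change of 0.39 (SE 0.13, adjusted p = 0.195). IFNLR1, a chain of the interferon-λ receptor, was at 1.47, 1.39 and 1.32 FPKM in the NC and 1.10, 0.737 and 0.862 FPKM in the TNF-α replicates, a log2 fold change of -0.34 (SE 0.13, adjusted p = 0.195). STAT2 was at 27.7, 25.9 and 28.6 FPKM in the NC and 28.9, 24.02 and 26.4 FPKM in the TNF-α replicates. The groups overlapped, with an adjusted p of 0.77 by limma. IRF9 was at 1.12, 1.45 and 1.58 FPKM in the NC and 1.56, 1.59 and 1.44 FPKM in the TNF-α replicates. IRF7, which was not tested, was at 0.390, 0.603 and 0.616 FPKM in the NC and 0.355, 0.147 and 0.172 FPKM in the TNF-α replicates, and IFNAR2, also not tested, at 0.126, 0.119 and 0.0742 FPKM in the NC and 0.142, 0.134 and 0.152 FPKM in the TNF-α replicates. Since 48.4% of IRF9 and 83.2% of IFNAR2 exon bases overlapped other genes, their levels are uncertain.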

How the data were processed

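Libraries were assigned to the NC and TNF-α groups (n = 3 each) from their titles. Per the labels, poly(A) RNA was sequenced, and HISAT2 2.0.5, StringTie 1.3.3b, featureCounts 1.5.0, DESeq2, edgeR and GATK 3.7 are listed in the submitters' processing notes. The use of strand in counting and the annotation file are not given in the sources used here. The authors deposited gene expression as FPKM, 1 column per library, and all 58735 genes matched GENCODE 29 (Ensembl 94, GRCh38) in identifier, position and merged exon length. A further 6 columns of per-sample values match no sample described here and were not used. FPKM times length gave whole reads for 100% of values within 0.05 reads. The library total inside the FPKM was 0.925 to 0.959 times the reads in genes in the NC libraries and 0.925, 0.693 and 0.759 times in TNF-α replicates 1 to 3, and this factor scales every value of a library. A gene of 2 kb with 3 reads had 0.0415 to 0.0618 FPKM, a limit that covers counting error only.

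Genes with at least 1 FPKM in at least 3 of 6 libraries (12136) were tested as log2(FPKM + 1) with limma 3.58.1 in R 4.3.3 (intensity trend, two-sided, Benjamini-Hochberg). The pseudocount of 1 makes fold changes of low genes too small. The code was tested on simulated data. Exon overlaps were counted on both strands. The correction used natural splines of GC content and length with 5 degrees of freedom. RefSeq promoter windows were searched by their letters. Tables were made in pandas 2.3.3 and numpy 2.4.6 under Python 3.11.15, plots in matplotlib 3.10.9. Values per library are given for members above or below every NC library in each TNF-α library, those with an unadjusted p under 0.05, those highest in the NC group of each role, and for STAT2, IRF9, IRF1, IRF7, IFNB1, IFNAR1, IFNAR2, CXCL10 and pathway genes past the threshold. Values of IFI44L, IFI27, IFITM2, OASL, IFIH1, EIF2AK2, CMPK2, SAMD9, SAMD9L, XAF1, SP100, IFNGR1, IFNGR2, IFNLR1, VIM, SOX2 and EGFR were added after they were seen. A further pathway gene is not reported here. The members, lists and tests were chosen with earlier results of these data known. The alternatives were other pseudocounts, filters, scalings, eBayes options, a replicate block, limma-voom and leaving out each library.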

Additional observations from a re-analysis of the deposited data

How the results depend on the processing

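Of 938 log2 fold changes of single members recomputed under 20 alternatives, 820 kept their direction and their side of the threshold, 45 passed the threshold in the same direction and 73 reversed, and 15 members never reversed. The count of members with an adjusted p under 0.05 (0 of 47) was 1 (GBP5) with the GC content and length correction, 0 with this correction and the replicate block, and 12 with TNF-α replicate 1 as the one treated library, and ran from 0 to 38 when 1 library was left out, reaching 38 without TNF-α replicate 1. The count above every NC library in each TNF-α library was 19, against 14.8% of all genes tested. It was 7 with TPM (6.14% of all genes), 8 with quantile normalization (13.1%) and 10 with limma-voom (9.37%). With TNF-α replicate 1 alone it was 38, against 30.5% of all genes. On leaving out 1 library it ran from 19 to 24. The 24 came without TNF-α replicate 1, where 5596 of all 12136 genes tested were above as well. The count below (1) was 2 with TPM, with centring and with limma-voom and 3 with TNF-α replicate 1 alone, and ran from 1 to 17 on leaving out 1 library, with 17 without TNF-α replicate 1, where 40.8% of all genes were below, 3 without NC replicate 3, and 2 without NC replicate 2 or TNF-α replicate 3. The median log2 fold change of the members (0.21) was -0.27 with TPM, -0.0872 with quantile normalization, -0.0466 with limma-voom and 0.31 with the GC content and length correction, with or without the replicate block, and 0.14 to 0.24 on leaving out 1 library. The median of all genes was -0.42 with TPM and -0.22 with limma-voom. The cause of these changes was not tested. Over all genes, the count of calls (123, with 87 higher) was 24 (23 higher) with the replicate block, 247 (154 higher) with the correction, 42 (36 higher) with both, 76 (56 higher) with limma-voom, 58 with TPM, 58 without a filter, 79 with a minimum of 5 FPKM and 185 with quantile normalization. It was 9630 without TNF-α replicate 1, and 10 to 42 without another library. Deviations of same-numbered libraries from their group means correlated at -0.0144, -0.178 and 0.124. TNF-α replicates 2 and 3 had similar values with NC replicate 2, -0.178 and -0.155. Such correlations therefore cannot decide whether libraries were paired. A fit with the replicate block called 0 of the 47 members, with the same median of 0.21. Not every library correlated best with its own number.

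Log2 fold changes of these members changed sign. TPM gave -0.203 for IFI44, -0.296 for IFIT3, -0.315 for DDX58, -0.38 for USP18, -0.435 for IFI16, -0.491 for CMPK2, -0.155 for GBP1, -0.191 for HERC6, -0.479 for HERC5, -0.436 for SP100, -0.205 for SP110, -0.246 for GBP3, -0.27 for GBP2, -0.184 for MX2 and -0.161 for GBP5. Quantile normalization gave -0.399 for IFI44, -0.400 for IFIT3, -0.328 for DDX58, -0.319 for USP18, -0.337 for IFI16, -0.35 for CMPK2, -0.0597 for HERC6, -0.214 for HERC5 and -0.0872 for SP100. Centring gave -0.0389 for CMPK2 and -0.0304 for HERC5. limma-voom gave -0.0612 for IFIT3, -0.081 for DDX58, -0.15 for USP18, -0.203 for IFI16, -0.263 for CMPK2, -0.253 for HERC5, -0.211 for SP100, -0.0191 for GBP3 and -0.0466 for GBP2. The GC content and length correction, with or without the replicate block, gave 0.0382 for IFIT1, -0.247 for USP18, 0.0739 for PARP14, 0.136 for IFI44L, -0.15 for CMPK2, 0.194 for PARP9 and 0.141 for TRIM22. TNF-α replicate 1 alone, chosen after seeing the data, gave -0.0139 for ISG15, -0.068 for IFI27, 0.301 for OAS3, 0.169 for SAMD9, 0.308 for OAS2, 0.173 for DTX3L, 0.361 for PARP14, 0.586 for SAMD9L, 0.0177 for EIF2AK2, 0.209 for IFI44L, 0.53 for IFIH1, 0.18 for IFIT5, 0.175 for PARP9, 0.387 for TRIM22, -0.244 for IFITM2 and 0.748 for XAF1. Leaving out 1 library reversed CMPK2, IFI16, HERC5, SP100, TRIM22 and XAF1, whose ranges follow. CMPK2 ran from -0.233 to 0.19, IFI16 ran from -0.0133 to 0.124, HERC5 ran from -0.0322 to 0.0708, SP100 ran from -0.0812 to 0.14, TRIM22 ran from -0.379 to 0.0683 and XAF1 ran from -0.902 to 0.041.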
